A study of Mus musculus with 6 samples.

Results

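The genes of glycolysis, gluconeogenesis and the tricarboxylic acid (TCA) cycle were examined in crypt epithelium of Sox9-deficient and control mice. The list held 46 genes chosen by name. A gene entered when a probe set carried its symbol and no other, and its brightest probe set over all 6 arrays stood for it, with array controls left out. In this way 43 of the 46 genes were measured, out of 18193 genes named alone on the array, and 42 passed the filter for the tests (a mean of at least 4 on the log2 scale). The member below that filter was Ldhb, which codes for the heart-type lactate dehydrogenase subunit and read 2.87 to 3.03 in KO and 2.91 to 2.98 in WT. Gpi1, Eno1 and Gapdh were not analysed here under this rule, since none of the 3 had a probe set of its own; for Gapdh, array controls and probe sets shared with other symbols were at hand.

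The mice were 3 Sox9-deficient animals (KO 1 to KO 3) and 3 wild-type littermate controls (WT 1 to WT 3), all C57BL/6 and 3 months old. Each gave total RNA from the epithelium of jejunal crypts for 1 biotin-labelled Affymetrix array, and the study asked which genes Sox9, a transcription factor of the crypt base, controls. The labels do not say how or in which cells Sox9 was removed, nor which of the mice were born together. Values are log2 intensities made with GCRMA, and a difference of 1 on this scale is a doubling. With 3 mice in each group an exact two-sided permutation test cannot go below p = 0.1.

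Glycolysis splits glucose into pyruvate in the cytosol. Pyruvate is then reduced to lactate or enters the mitochondrion, where the pyruvate dehydrogenase complex turns it into acetyl-CoA for the TCA cycle, unless pyruvate dehydrogenase kinases switch the complex off. Gluconeogenesis runs the other way through a few enzymes of its own. In the intestine, crypt cells divide and lean on glycolysis, while the absorptive cells of the villus take up dietary sugars and burn much of their fuel in mitochondria.

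Sox9 signal was low on the KO arrays on 1 of its 3 probe sets (2.44, 2.75 and 2.42 in KO, against 7.61, 5.96 and 5.84 in WT). The others did not part the groups, with 5.33 to 6.34 in KO and 2.68 to 6.23 in WT on one, and 3.16 to 3.28 in KO and 3.18 to 3.53 in WT on the next. The arrays also differed in ways that cross the groups. Xist was high on all 3 KO arrays and on WT 3 (at least 6.28 on its 3 probe sets) and low on WT 1 and WT 2 (at most 3.72), while Y-linked Eif2s3y showed the opposite (2.84 to 2.95 in KO, against 10.11 and 10.12 on WT 1 and WT 2 and 2.86 on WT 3). Thus WT 3 was the only control array with the sex-linked signal of the mutants. The 3' minus 5' difference of the Gapdh control, a sign of RNA breakdown, was 0.37 to 0.91 in KO and 0.61, 0.65 and 1.75 on WT 1 to WT 3. Crypt epithelial markers such as Epcam and Krt8 were high on every array (mean of 6 genes 14.0 to 14.35 in KO and 14.23 to 14.39 in WT). Differences were positive in 0 of these 6, with a median of -0.11. Of 6 stromal and 6 muscle markers, 1 in each list passed the filter, and of 3 endothelial and 2 measured red cell markers 0 did.

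Most of the central carbon genes read alike in both genotypes, and 0 of the 42 passed the test over all probe sets. That test called 2 of 18108 probe sets, or 0.011%, at a limma adjusted p under 0.05, and the smallest adjusted p of a member was 0.999. In 31 of 42 members the means differed by less than 0.25 (73.8%, against 62.0% of all probe sets tested), and in 19 by less than 0.1. The median difference, KO minus WT, was 0.03, the same as over all probe sets tested (0.03), with 25 members positive and 17 negative. The 95% interval of the difference lay within 1 log2 unit of 0 in 33 members and within 0.5 in 10. Typical spread between mice was small, with a median SD of 0.19 in each genotype.

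**Figure D1:**
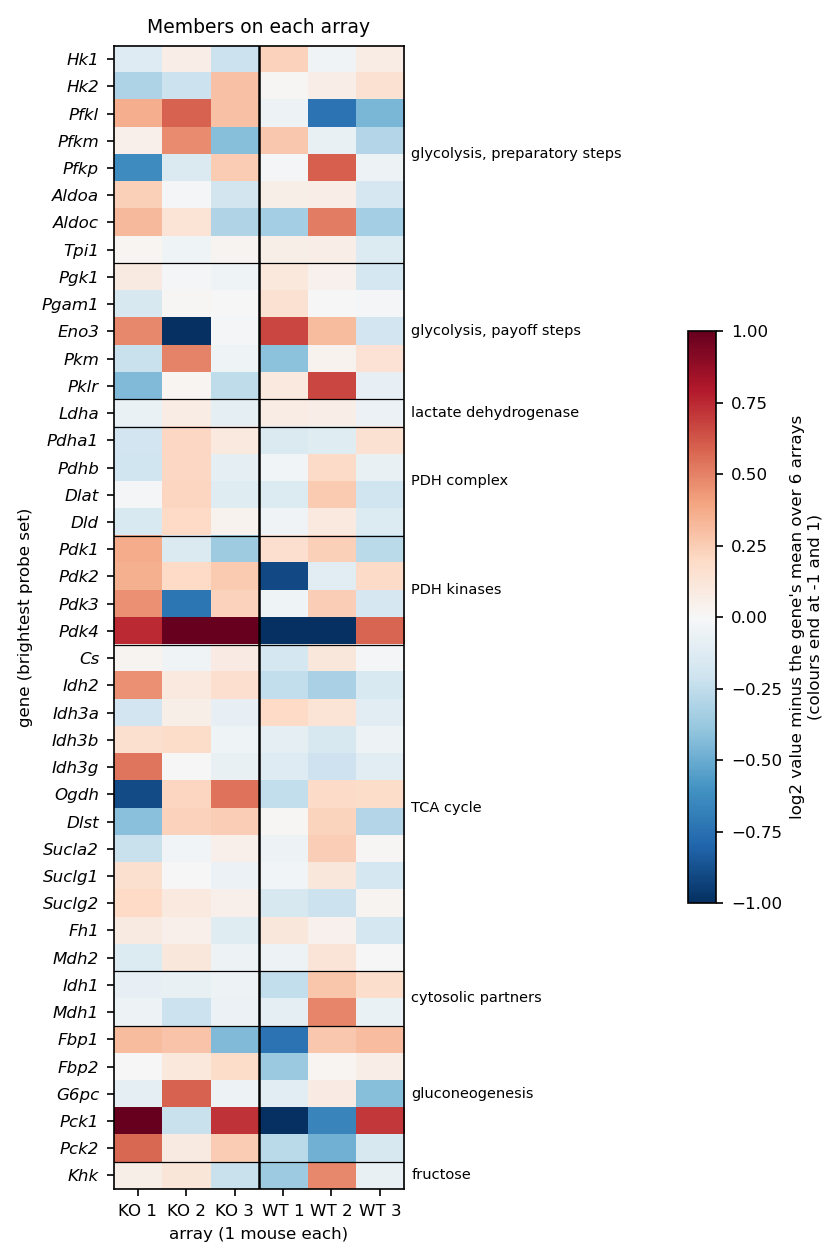
Log2 value of each of the 42 tested members on each array (columns, 1 mouse each) minus the gene's mean over the 6 arrays, in pathway order, with colours ending at -1 and 1. Most rows are pale in both groups; Pdk4 and Pck1 have the strongest colours, and on WT 3 they resemble the KO arrays.

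A few members stood apart, and where the groups did not overlap on the brightest probe sets the KO arrays were the higher ones. All KO arrays lay above all WT arrays in 8 of 42 members (19.0%), Pfkl, Pdk2, Pdk4, Idh2, Idh3b, Idh3g, Suclg2 and Pck2, against 5.09% of all probe sets tested. No member had all KO arrays below all WT arrays on its brightest probe set, against 4.03% of all probe sets. At an unadjusted limma p under 0.05 there were 4 members higher in KO (9.52%, against 1.81% of all probe sets) and 0 lower (against 1.81%). These 4 were Pfkl, Pdk4, Pck2 and Idh2, none past the adjusted threshold (limma adjusted p = 0.999 for each). The genes were listed with earlier results of these data known, so these shares describe the list. Under quantile normalization the 8 became 4, beside 1 member with KO below WT (3.81% and 4.95% of all probe sets). When Y-linked signal entered the fit as a term, the 4 became 0 (2.98% of all probe sets were higher in that fit). No KO array had that signal and WT 3 was the only WT array without it. The term thus set KO in effect against WT 3 alone, and the drop to 0 cannot be told apart from a loss of controls. Leaving out 1 array turned the 4 into between 1 (without WT 2, 1.4% of all probe sets) and 5 (without WT 3, 2.25%), and into 2 without KO 3 or without WT 1 (1.49% and 2.46%). The count was 6 with no filter (1.24%) and 6 with the Gapdh 3' minus 5' difference as a term (2.4%). The 0 members below became 1 to 4 in 5 of the 6 fits that left out 1 array, with 4 without KO 2 (6.48% of all probe sets) and 3 without WT 3 (8.6%).

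**Figure D2:**
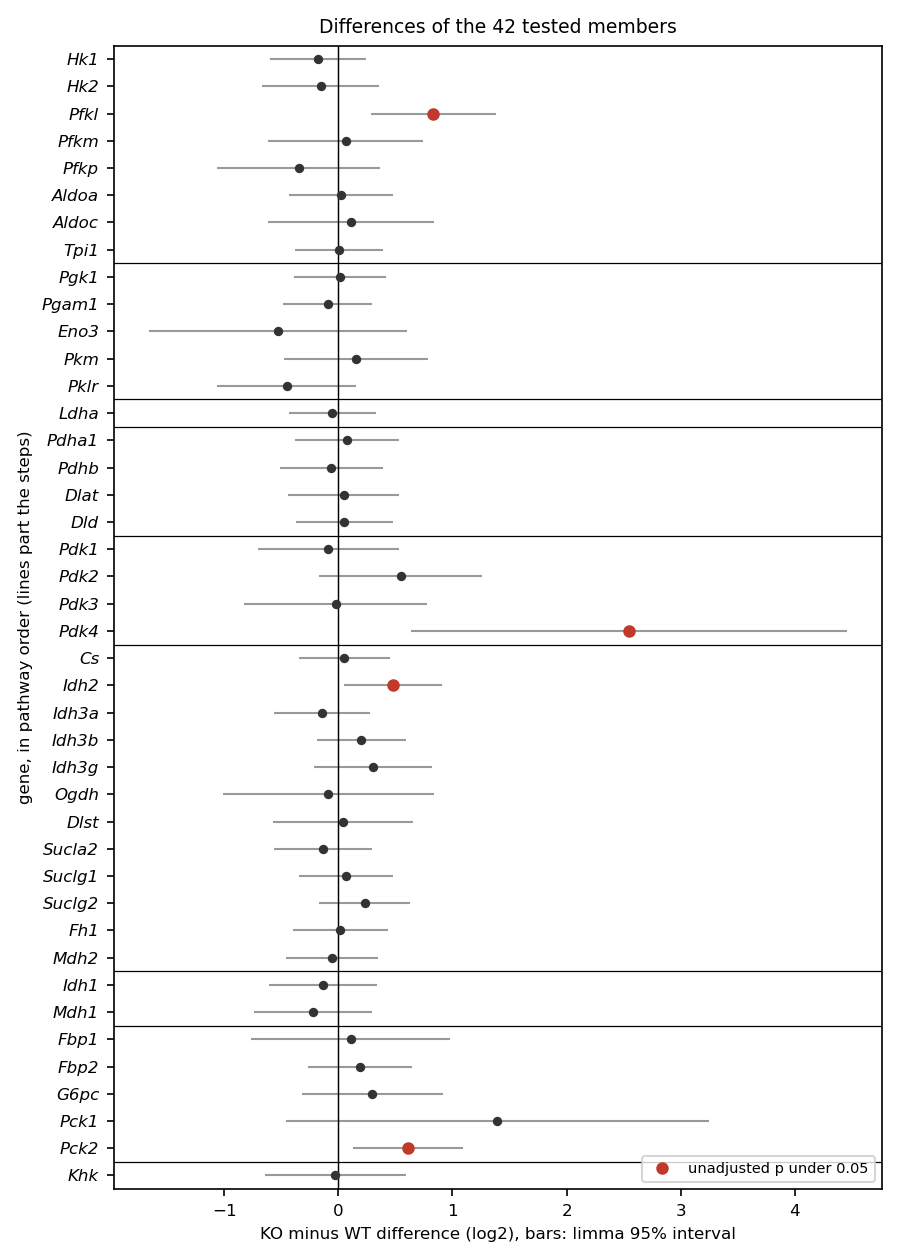
KO minus WT difference (log2, points) with its 95% limma interval (bars) for the 42 tested members in pathway order, lines parting the steps. Red points mark Pfkl, Pdk4, Idh2 and Pck2, whose intervals leave out 0; the intervals of the other 38 hold 0.

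The promoter sequences of these 4 genes are shown because their mutant and control arrays parted most. Each runs from 250 bases before to 50 bases after the start of transcription, 5′ to 3′ along the gene, from RefSeq on GRCm38.p6. Pfkl lies on the minus strand of chromosome 10 (chr10:78009758-78010057), Pdk4 on the minus strand of chromosome 6 (chr6:5496229-5496528), Pck2 on the plus strand of chromosome 14 (chr14:55540016-55540315) and Idh2 on the minus strand of chromosome 7 (chr7:80115301-80115600). Capitals mark the CCAAT box, a general promoter element, which reads ATTGG where it lies on the other strand.
Pfkl: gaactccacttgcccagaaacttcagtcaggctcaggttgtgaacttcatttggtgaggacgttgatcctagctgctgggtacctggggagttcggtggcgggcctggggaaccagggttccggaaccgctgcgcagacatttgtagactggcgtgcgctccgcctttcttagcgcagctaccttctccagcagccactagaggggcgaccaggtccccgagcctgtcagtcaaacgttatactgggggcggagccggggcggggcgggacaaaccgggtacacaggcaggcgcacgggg
Pdk4: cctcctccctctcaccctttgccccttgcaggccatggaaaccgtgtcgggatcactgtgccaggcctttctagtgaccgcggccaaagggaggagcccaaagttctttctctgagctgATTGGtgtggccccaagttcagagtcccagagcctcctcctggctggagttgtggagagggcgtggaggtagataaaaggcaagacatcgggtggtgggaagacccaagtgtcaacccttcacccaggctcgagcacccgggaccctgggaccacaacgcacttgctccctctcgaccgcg
Pck2: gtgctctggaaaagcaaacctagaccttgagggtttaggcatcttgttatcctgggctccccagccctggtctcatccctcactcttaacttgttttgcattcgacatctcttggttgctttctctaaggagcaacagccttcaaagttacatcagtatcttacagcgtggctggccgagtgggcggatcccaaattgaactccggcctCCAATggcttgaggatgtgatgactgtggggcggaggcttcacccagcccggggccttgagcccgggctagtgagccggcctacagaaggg
Idh2: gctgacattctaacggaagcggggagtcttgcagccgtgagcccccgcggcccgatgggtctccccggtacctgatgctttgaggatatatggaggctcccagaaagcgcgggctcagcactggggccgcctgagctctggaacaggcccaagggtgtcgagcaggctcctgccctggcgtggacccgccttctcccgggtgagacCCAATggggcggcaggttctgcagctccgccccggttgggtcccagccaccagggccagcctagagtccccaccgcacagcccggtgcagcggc
Searched on both strands, CCAAT stood in 3 of the 4 windows, with its first base at position -131 from the start in Pdk4, -41 in Pck2 and -44 in Idh2. It occurs in 37.4% of the 32851 RefSeq promoter windows and in 50% of the 60 windows that 42 of the 43 measured members have in the table. ACAAT, the core that SOX factors bind, was in 0 of the 4, in 31% of all windows and in 25% of the members' windows. CACGTG, the E-box bound by Myc, was in 0 of the 4, in 7.15% of all windows and in 13.3% of the members'. The letters searched for were chosen with the array results known, those of the CCAAT box after the 4 sequences were seen, and a match in such a window is a description of its letters only.

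Glycolysis opens with phosphorylation of glucose by hexokinase. Hk2, the inducible hexokinase, read 7.90, 8.0 and 8.51 in KO and 8.22, 8.28 and 8.37 in WT (difference -0.15, 95% interval -0.67 to 0.36). Hk1, the constitutive form, read 5.37, 5.57 and 5.29 in KO and 5.74, 5.47 and 5.58 in WT (difference -0.18, -0.60 to 0.24). The groups overlapped in both, with lower KO means.

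Phosphofructokinase, the main control point of the pathway, has a liver, a muscle and a platelet subunit, and the liver subunit had the largest difference. Pfkl, the liver subunit, read 9.93, 10.16 and 9.86 in KO and 9.52, 8.83 and 9.11 in WT. Every KO mouse lay above every WT mouse, by a mean of 0.83 ± 0.23 (SE), or 1.78-fold (unadjusted p = 0.00925, limma adjusted p = 0.999, exact permutation p = 0.1). A second Pfkl probe set repeated the pattern, with 8.34, 8.81 and 8.59 in KO and 7.97, 7.51 and 7.18 in WT (difference 1.03, limma adjusted p = 0.937). The Pfkl difference was as large against WT 3 alone (0.87) as against WT 1 and WT 2 (0.81). With Y-linked signal as a term in the fit it was 0.83, a value that in effect rests on WT 3 too and is no separate check. Pfkp, the platelet subunit, read 10.76, 11.24 and 11.64 in KO and 11.37, 11.98 and 11.33 in WT (difference -0.35, -1.06 to 0.37; -0.12 without KO 1 and -0.14 without WT 2), with overlapping groups. Its dimmer probe set read 2.26, 5.66 and 5.84 in KO and 5.10, 3.90 and 2.24 in WT, which crosses the floor of the array in both genotypes. Pfkm, the muscle subunit, differed by 0.07. Whether the difference of Pfkl differs from that of Pfkp was not tested.

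**Figure D3:**
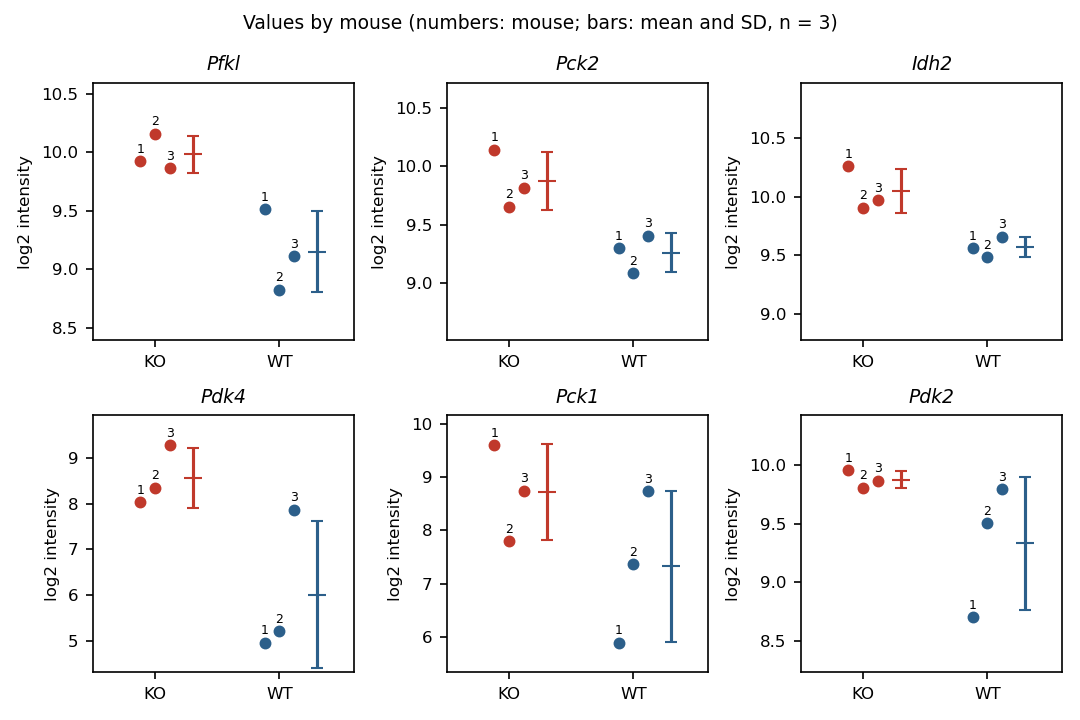
Log2 intensity of 6 members in each mouse (points, numbered by mouse) with the mean and SD of each genotype (n = 3, bars); the axes differ between panels. Pfkl, Pck2 and Idh2 part the genotypes in every mouse, whereas WT 3 lies at or near the KO arrays for Pdk4, Pck1 and Pdk2.

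The middle and lower steps of glycolysis differed little between genotypes. Aldoa, the main aldolase outside the liver, read 12.99, 12.73 and 12.57 in KO and 12.81, 12.82 and 12.58 in WT (difference 0.03, -0.43 to 0.48), and its 5 probe sets lay between -0.13 and 0.10. Tpi1, triose phosphate isomerase, differed by 0.00 (-0.38 to 0.39) and Pgk1, phosphoglycerate kinase, by 0.02 (-0.39 to 0.42). Pgam1, phosphoglycerate mutase, differed by -0.09 and Aldoc, an aldolase best known from brain, by 0.11. Of the Gapdh array controls, the 3' control read 14.54, 14.58 and 14.47 in KO and 14.49, 14.57 and 14.29 in WT.

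Eno3, the muscle enolase, was the most negative member but rested on KO 2. It read 8.35, 6.61 and 7.85 in KO and 8.54, 8.19 and 7.68 in WT, so KO 1 and KO 3 lay within the WT range (difference -0.53, -1.66 to 0.60, limma adjusted p = 0.999). Of the 6 muscle markers, Ckm, Des, Myh11 and Tagln lay between 2.27 and 2.82 on every array and Acta2 between 3.69 and 3.79. Acta1 read 5.75, 6.52 and 5.81 in KO and 5.55, 5.62 and 5.81 in WT, highest on KO 2, and the part of muscle RNA in the Eno3 values was not tested.

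Pyruvate kinase makes pyruvate, and its 2 genes read in opposite directions with overlapping groups. Pkm, the form common in dividing cells, read 12.50, 13.22 and 12.68 in KO and 12.31, 12.76 and 12.87 in WT (difference 0.15, -0.47 to 0.78). Pklr, the liver and red cell form, read 9.65, 10.11 and 9.84 in KO and 10.19, 10.76 and 10.01 in WT (difference -0.45, -1.06 to 0.16, exact permutation p = 0.2; -0.23 without WT 2). Its other 2 probe sets differed by 0.05 and 0.43, and both were lowest on WT 3 (6.79 and 4.90), the array with the largest Gapdh 3' minus 5' difference; the part of RNA breakdown in this was not tested. Ldha, which makes lactate, read 14.46, 14.61 and 14.44 in KO and 14.61, 14.59 and 14.47 in WT (difference -0.05, -0.44 to 0.33).

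The 4 subunit genes of the pyruvate dehydrogenase complex were level, within 0.08 of 0 on their brightest probe sets. Pdha1, its catalytic subunit, read 12.13, 12.52 and 12.42 in KO and 12.17, 12.20 and 12.47 in WT (difference 0.08, -0.38 to 0.53). Pdhb differed by -0.06, Dlat, the acetyl-transferring core, by 0.05 and Dld, the dehydrogenase shared with the oxoglutarate complex, by 0.05. A second Pdha1 probe set gave 11.20, 11.47 and 11.50 in KO and 11.11, 10.76 and 10.15 in WT (difference 0.72, limma adjusted p = 0.999), lowest on WT 3 as with Pklr.

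The kinases that switch this complex off included the member with the largest difference. Pdk4, which rises with fasting and fat use in many tissues, read 8.03, 8.35 and 9.29 in KO and 4.96, 5.21 and 7.87 in WT. No WT mouse reached the KO range, but WT 3 lay just under KO 1, while WT 1 and WT 2 lay far below. The mean difference was 2.55 ± 0.80 (SE), or 5.84-fold (95% interval 0.64 to 4.46, unadjusted p = 0.0166, limma adjusted p = 0.999, exact permutation p = 0.1). Against WT 1 and WT 2 the KO mean was 3.48 higher, and against WT 3 it was 0.69 higher. WT 3 itself lay 2.79 above the mean of the other controls. The Pdk4 difference was 0.71 with Y-linked signal as a term in the fit, which in effect rests on WT 3. Without WT 3 it was 3.48 (limma adjusted p = 0.174). The labels give no sex, feeding state or time of day for each mouse, and their part in this pattern was not tested.

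Pdk2, a widely expressed kinase, followed a similar order of arrays. It read 9.96, 9.81 and 9.87 in KO and 8.70, 9.50 and 9.80 in WT, a difference of 0.55 ± 0.30 (SE; limma adjusted p = 0.999). The KO arrays lay above WT 3 by only 0.08 on average and above WT 1 and WT 2 by 0.78. The difference was 0.23 without WT 1, and 0.13 with Y-linked signal as a term, which in effect rests on WT 3. Pdk1, a target of hypoxia signalling, read 10.18, 9.66 and 9.45 in KO and 9.97, 10.05 and 9.54 in WT (difference -0.09, -0.71 to 0.53). Pdk3 differed by -0.02, with KO 2 lowest at 7.93.

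**Figure D4:**
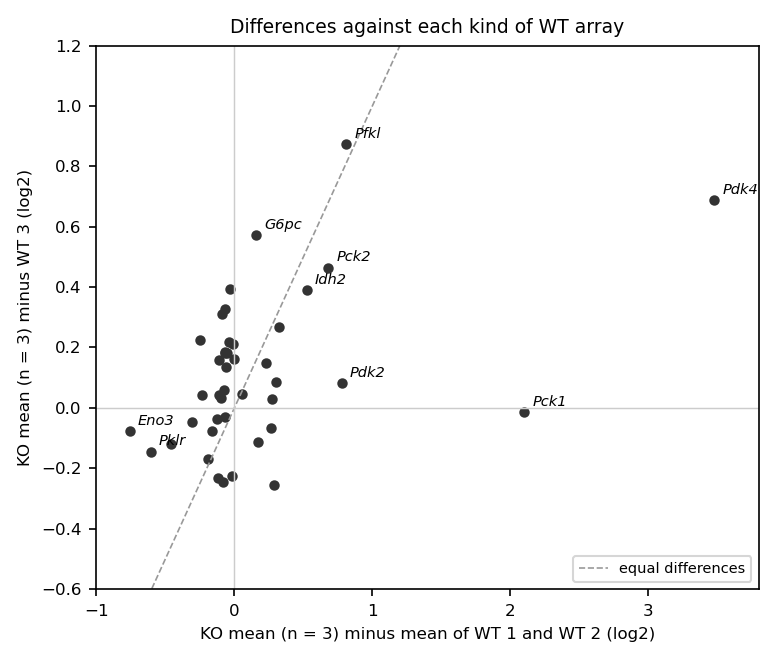
For each of the 42 tested members, the KO mean minus the mean of WT 1 and WT 2 (x axis, log2) against the KO mean minus WT 3 (y axis, log2); the dashed line marks equal differences and the axes have different scales. Pfkl, Pck2 and Idh2 lie near the line, whereas Pdk4, Pck1 and Pdk2 lie far to its right.

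In the TCA cycle 12 genes were tested, with 8 positive, 4 negative and a median difference of 0.05. Cs, citrate synthase, which brings acetyl-CoA into the cycle, read 14.06, 13.99 and 14.11 in KO and 13.85, 14.14 and 14.01 in WT (difference 0.05, -0.35 to 0.45). Its dimmest probe set read 11.29 on WT 3 and 12.14 to 12.75 on the other 5 arrays. Mdh2, Fh1 and Suclg1, the mitochondrial malate dehydrogenase, fumarase and a succinyl-CoA ligase subunit, differed by -0.06, 0.01 and 0.07.

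The isocitrate dehydrogenases were a mixed group. Idh2, the mitochondrial NADP-dependent enzyme, read 10.26, 9.90 and 9.97 in KO and 9.56, 9.48 and 9.66 in WT, with all KO mice above all WT mice. That difference was 0.48 ± 0.18 (SE), or 1.39-fold (unadjusted p = 0.0331, limma adjusted p = 0.999, exact permutation p = 0.1), with 0.39 against WT 3 and 0.52 against the other controls, and it was 0.23 when averaged with a second probe set that lay at the floor (2.96 to 3.0 in KO and 2.94 to 3.06 in WT). Both regulatory subunit genes of the NAD-dependent enzyme also parted the groups on their brightest probe sets, by narrow margins. Idh3g read 13.40, 12.86 and 12.79 in KO and 12.73, 12.65 and 12.75 in WT (difference 0.30, -0.21 to 0.82; 0.11 without KO 1). Idh3b read 13.62, 13.63 and 13.41 in KO and 13.36, 13.29 and 13.41 in WT (difference 0.20, -0.19 to 0.59), so that KO 3 and WT 3 nearly coincided. On the next brightest probe set of each gene the groups overlapped, with differences of 0.25 for Idh3g and 0.21 for Idh3b. The catalytic subunit gene Idh3a differed by -0.14, with overlapping groups. Idh1, the cytosolic enzyme, read 12.61, 12.62 and 12.65 in KO and 12.45, 12.97 and 12.87 in WT (difference -0.14, -0.61 to 0.34).

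Succinyl-CoA is made by the oxoglutarate dehydrogenase complex and used by succinyl-CoA ligase. Ogdh, the first subunit of that complex, read 10.41, 11.52 and 11.85 in KO and 11.06, 11.50 and 11.49 in WT, where KO 1 was the lowest array of all (difference -0.09, -1.02 to 0.84). Leaving out KO 1 turned it to 0.34. Dlst, the second subunit, differed by 0.04 on its brightest probe set, while its dimmest read 5.98, 6.22 and 6.03 in KO and 6.51, 6.80 and 6.68 in WT (difference -0.58, limma adjusted p = 0.999). Suclg2, the GTP-forming ligase subunit, read 12.56, 12.46 and 12.41 in KO and 12.20, 12.14 and 12.39 in WT. Its difference was 0.23 on this and on its second probe set, with no overlap between groups on either, although WT 3 lay just under KO 3. Sucla2, the ATP-forming counterpart, differed by -0.13. Mdh1, the cytosolic malate dehydrogenase, differed by -0.22 through WT 2, which read 15.01 while the other 5 arrays read 14.30 to 14.46, and its other probe sets above the filter differed by -0.08 to -0.02.

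**Figure D5:**
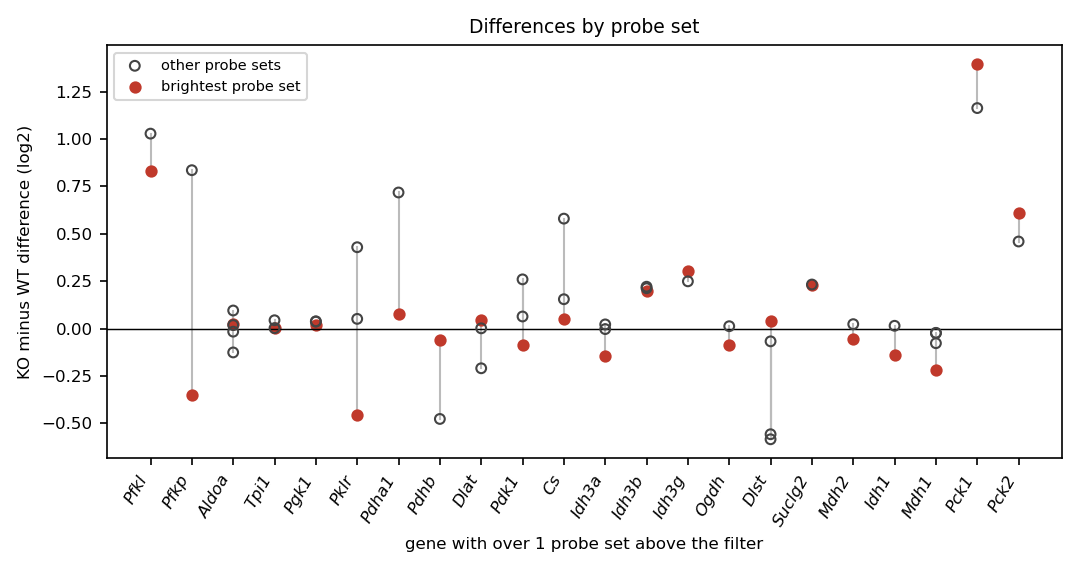
KO minus WT difference (log2) of every probe set above the filter for the 22 members with more than 1; filled red points are the brightest and open points the others. The probe sets of Pfkl, Pck1 and Pck2 are all positive, while those of Pfkp, Pklr and Dlst spread to both sides of 0.

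All 5 gluconeogenic genes had positive differences, with a median of 0.30, and 1 of them parted the groups (53.9% of all probe sets were positive and 5.09% had KO above WT without overlap). Pck2, the mitochondrial form of phosphoenolpyruvate carboxykinase, read 10.14, 9.66 and 9.82 in KO and 9.30, 9.09 and 9.41 in WT. Every KO mouse was above every WT mouse, by 0.61 ± 0.20 (SE), or 1.52-fold (unadjusted p = 0.0212, limma adjusted p = 0.999, exact permutation p = 0.1). A second Pck2 probe set differed by 0.46 with overlap. Against WT 3 alone the difference of the brightest was 0.46 and against the other controls 0.68.

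Pck1, the cytosolic form and a classic fasting gene of liver, varied widely between mice of the same genotype. It read 9.61, 7.80 and 8.75 in KO and 5.88, 7.36 and 8.74 in WT, so WT 3 lay inside the KO range (difference 1.39 ± 0.77, SE, limma adjusted p = 0.999). The KO mean was 2.10 above that of WT 1 and WT 2 and 0.01 below WT 3. The difference was 0.67 without WT 1, 2.10 without WT 3, and 0.10 with Y-linked signal as a term, which in effect rests on WT 3. A dimmer Pck1 probe set read 4.84, 5.28 and 5.89 in KO and 4.14, 4.25 and 4.12 in WT (difference 1.16, limma adjusted p = 0.916), where WT 3 did not stand with the mutants. The 2 probe sets thus placed WT 3 differently, but the dimmer one lay close to the filter of 4 on all WT arrays. WT 3 was also the array with the largest Gapdh 3' minus 5' difference. The part of low signal or RNA breakdown in this was not tested.

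The remaining genes of this branch overlapped between genotypes. G6pc, glucose-6-phosphatase, which releases free glucose, read 7.83, 8.52 and 7.87 in KO and 7.82, 8.0 and 7.50 in WT (difference 0.30, -0.32 to 0.91; 0.08 without KO 2). Fbp1, the liver-type fructose bisphosphatase, read 10.86, 10.83 and 10.11 in KO and 9.80, 10.81 and 10.86 in WT (difference 0.11, -0.76 to 0.98). Fbp2, the muscle-type form, differed by 0.19, with WT 1 lowest at 12.34. Khk, ketohexokinase, which starts fructose breakdown, read 11.51, 11.57 and 11.23 in KO and 11.09, 11.93 and 11.38 in WT (difference -0.03, -0.65 to 0.59).

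Markers of other crypt and villus cells also differed between the arrays. The mean of 9 measured villus enterocyte markers was 13.92, 13.86 and 13.65 in KO and 12.94, 13.41 and 13.41 in WT. Of the 9, 8 were higher in KO and 0 passed the adjusted threshold, with a median difference of 0.18. Ada had the largest difference, 2.10, and read 11.25, 10.28 and 6.88 in KO and 7.19 to 7.74 in WT. The others ran from -0.01 for Fabp2 to 0.95 for Alpi. The summed intensity of the 9 ranged from 251452 to 294033 in KO and from 200424 to 269422 in WT. The mean of 4 Paneth cell markers was 13.10 to 13.76 in KO and 14.65 to 15.26 in WT, with differences of -4.71 for Mmp7, -0.75 for Lyz1, -0.58 for Itln1 and 0.06 for Ang4. For 6 measured proliferation markers it was 9.47 to 9.96 in KO and 8.77 to 9.67 in WT, lowest on WT 2, with 6 of 6 positive. For 8 measured immune markers it was 6.87 to 7.79 in KO and 5.51 to 7.26 in WT, lowest on WT 1. Positive differences were seen in 7 of these 8, among them Itgam at the floor, and Lyz2 was at -1.13. The part of these cell types in the values of Pdk4, Pck1, Pck2, Idh2 and Pfkl was not tested. In bulk tissue fewer cells of a type cannot be told apart from less RNA per cell.

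Other genes of the same pathways were read in the same fit. Of 54 related genes 49 were measured and 41 tested, and 0 passed over all probe sets (limma), with 25 positive, 16 negative and a median difference of 0.04. Of these, 23 differed by less than 0.25 (56.1%), and 2 had all KO arrays above WT and 2 all below (against 5.09% and 4.03% of all probe sets). At an unadjusted limma p under 0.05 there were 2 higher and 0 lower, against 1.81% of all probe sets each way. The 2 were Myc, a growth regulator that induces glycolytic genes, and Pfkfb4, a regulator of phosphofructokinase. Myc read 9.77, 9.56 and 9.87 in KO and 9.10, 8.70 and 9.01 in WT (difference 0.80, limma adjusted p = 0.914). Pfkfb4 read 9.85, 9.74 and 9.98 in KO and 9.09, 9.62 and 9.29 in WT (difference 0.52, limma adjusted p = 0.999).

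Hif1a, which codes for an oxygen-regulated factor that drives glycolytic genes, lay the other way, at 10.06, 10.31 and 10.51 in KO and 10.56, 10.87 and 10.55 in WT (difference -0.37, limma adjusted p = 0.999). Slc2a1, a basolateral glucose carrier, read 9.14, 8.39 and 8.49 in KO and 9.25, 9.37 and 8.88 in WT (difference -0.50). The villus carriers Slc2a2 (-0.09), Slc2a5, which takes up fructose (-0.02), and Slc5a1, the sodium-coupled glucose carrier (0.04), differed little, although Slc2a5 ran from 8.65 to 9.23 in KO and from 7.83 to 10.10 in WT. Pfkfb3 (0.39), Pcx, pyruvate carboxylase (0.27), and Sdha, a succinate dehydrogenase subunit (0.10), had overlapping groups.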

How the data were processed

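The authors deposited log2 intensities for 45101 probe sets, made with GCRMA per the submitters' processing notes, which also name limma; no version or setting is given there. GCRMA pulls dim probe sets to a floor, which compresses differences there. Genes were named from the platform annotation (34945 probe sets with 1 symbol, 932 with several, 9160 with none, 64 controls left out), and all 43 measured members kept their symbol in RefSeq GRCm38.p6. Here limma 3.58.1 under R 4.3.3 (lmFit and eBayes, two-sided) tested KO against WT on the 18108 probe sets averaging 4 or more, with Benjamini-Hochberg adjustment over all of them; the fit was tested on simulated data. Mice were the replicates, and the number of arrays limits the precision. Members, related genes, markers and motifs were chosen with earlier results of these data known. All tested members are given by role; values on every array go to the 12 members of smallest p, to a set of regulated steps, and to any others said to stand out, which were chosen after their values were seen. Alternatives were no filter, a filter at 6, quantile normalization, array weights, a robust trended prior, centring on the median, a replicate block, each array left out and averaging all probe sets per gene; terms for Y-linked signal and for the Gapdh 3' minus 5' difference were added after seeing the data.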

Additional observations from a re-analysis of the deposited data

How the results depend on the processing

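Across the 16 alternatives 0 of the members tested passed the adjusted threshold in limma, nor did a related gene in the 15 run for that list; among the 24 members followed singly, the smallest adjusted p was 0.174 (Pdk4 without WT 3). The probe sets called over the whole table numbered 2, and 0 with no filter, 1 with a filter at 6, 4 under quantile normalization, 11 with array weights, 0 with a replicate block, 0 with either added term, and 0 to 16 with 1 array left out. Of the KO arrays, 0 of 3 correlated best with the WT array of their own number, which with 3 arrays per group cannot settle whether the numbers pair littermates. With the block 3 members were at an unadjusted p under 0.05. Members at an unadjusted p under 0.05 and higher in KO numbered 4 (1.81% of all probe sets), and 1 to 5 with 1 array left out (1.4% to 3.36%). They numbered 6 with no filter, 6 with the Gapdh term and 0 with the Y-linked term, which set KO in effect against WT 3 alone. Those with KO above WT without overlap numbered 8 (5.09% of all probe sets), and 4 under quantile normalization (3.81%). With 1 array left out they numbered 8 to 11, while the share of all probe sets rose to between 8.1% and 14.1%. Beside them 0 to 4 members had KO below WT, against 6.48% to 10% of all probe sets. The median difference ranged from -0.057 to 0.080 and the positive members from 15 to 29 with 1 array left out, both lowest without WT 3.

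Directions turned for some of the members followed in every alternative. Under quantile normalization Aldoa was -0.014. With array weights Aldoa was -0.061, Ogdh 0.27 and Khk 0.018. Averaging all probe sets per gene, Pfkp was 0.22, Aldoa -0.00018, Pklr 0.0095 and Pdk1 0.048. With the Y-linked term Pkm was -0.043, Ldha 0.031, Pdha1 -0.11, Pdk1 0.24, Fbp1 -0.19 and Khk 0.11. With 1 array left out, Aldoa ran from -0.089 to 0.12, Ogdh from -0.38 to 0.34, Fbp1 from -0.24 to 0.35, Pkm from -0.056 to 0.30, Pdha1 from -0.0066 to 0.19, Pdk1 from -0.30 to 0.068, Khk from -0.22 to 0.20 and Cs from -0.022 to 0.12. The cause of these turns was not tested. Of the 24 members followed singly, 13 kept their direction wherever they were tested. Among them were Pfkl, Pdk4, Pck2, Idh2 and Pck1, and also Hk2 and Idh1, whose differences were negative. Much of this was fixed in advance and is no separate check. Where all KO arrays lie above all WT arrays, leaving out 1 array cannot turn the sign. A changed filter, the robust trended prior and the replicate block leave the difference as it was.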
